A study of Rattus norvegicus with 4 samples.

Results

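Collagen genes were examined in the rat cochlear lateral wall, the tissue along the outer side of the cochlear duct. It was treated with saline or with 3-nitropropionic acid (3-NP), which blocks succinate dehydrogenase of the mitochondria. A label field describes the tissue as taken without the stria vascularis. Members were taken by name: every probe set with a single gene symbol of the form Col, number, a, number. This gave 29 of 10411 genes on the array design used at day 1 and 13 of 5667 on that used at day 3, or 37 of 13810 genes over both designs, of which 5 were on both. All animals were female Sprague-Dawley rats of 8 to 10 weeks with the left round window niche infused and the right cochlea destroyed surgically. The 4 groups were saline at day 1, 300 mM 3-NP at day 1, saline at day 3 and 300 mM 3-NP at day 3, with 1 array each and with the number of animals behind an array not given in the sources used here. No spread between animals could be measured, so differences are given as sizes without p-values.

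Collagens are proteins of the extracellular matrix whose chains wind around each other in threes, often chains from different genes. Fibrillar collagens such as types I, III and V form the fibrils of connective tissue. Types II, IX and XI form the thin fibrils of cartilage, and in the inner ear they are known from the tectorial membrane and from the spiral ligament. Type IV collagen is the network of basement membranes, and types XV and XVIII lie beside it around vessels and other cells. Inherited defects of several of these chains cause hearing loss, among them those of COL11A2 in Stickler syndrome and related deafness and of COL4A5 in Alport syndrome.

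The deposited values are MAS5 signals, a linear brightness per probe set, and the 2 days were run on different array designs, so no signal is compared across days. Median signals were 44.9 after saline and 60.7 after 3-NP at day 1, and 18.7 and 19.97 at day 3. Ratios are therefore printed as log2 of 3-NP over saline relative to the median gene, whose own log2 ratio as deposited was 0.44 at day 1 and 0.10 at day 3. A gene is called measured when 1 or both arrays of the pair gave a signal at or above their own median, and higher or lower when it was at least 2-fold apart relative to the median gene. From genes with several probe sets, log2 ratios had an SD per probe set of 0.35 at day 1 and 0.47 at day 3, which measures disagreement of probe sets and not of animals. Tissue labels were checked on Coch, which encodes cochlin of the spiral ligament, brighter than 99.99% of probe sets in both day 3 arrays, and on the connexin gene Gjb6, brighter than 95.9% or more in both day 1 arrays.

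At day 1 the collagens went in both directions. Of 5 measured cartilage-type collagens 4 were lower after 3-NP, led by Col9a2 and Col11a2, and the basement membrane collagens Col18a1 and Col4a1 were higher, with Col4a2 and Col15a1 on the same side. Fibrillar collagens were mixed, with Col1a2 and Col5a2 lower and Col3a1 above the median gene. Of 19 measured collagens, 2 were at least 2-fold higher, against 7.76% of all 6533 measured genes, and 7 were at least 2-fold lower, against 6.47% of all. These are 10.5% and 36.8% of the measured collagens. As deposited, without centring, 6 collagens were higher and 4 lower, against 17.9% and 2.62% of all genes. Below the median gene lay 13 of the 19 and above it 6. None of the 19 had a signal at the floor. The measured collagens are not all members: 10 of the 29 stayed below the median signal in both arrays, and 4 of the 19, Col4a5, Col27a1, Col5a1 and Col14a1, reached it only in the saline array. Of these, Col4a5 and Col27a1 are among the 7 lower genes, so that count describes a choice that favours a lower signal after 3-NP.

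**Figure D1:**
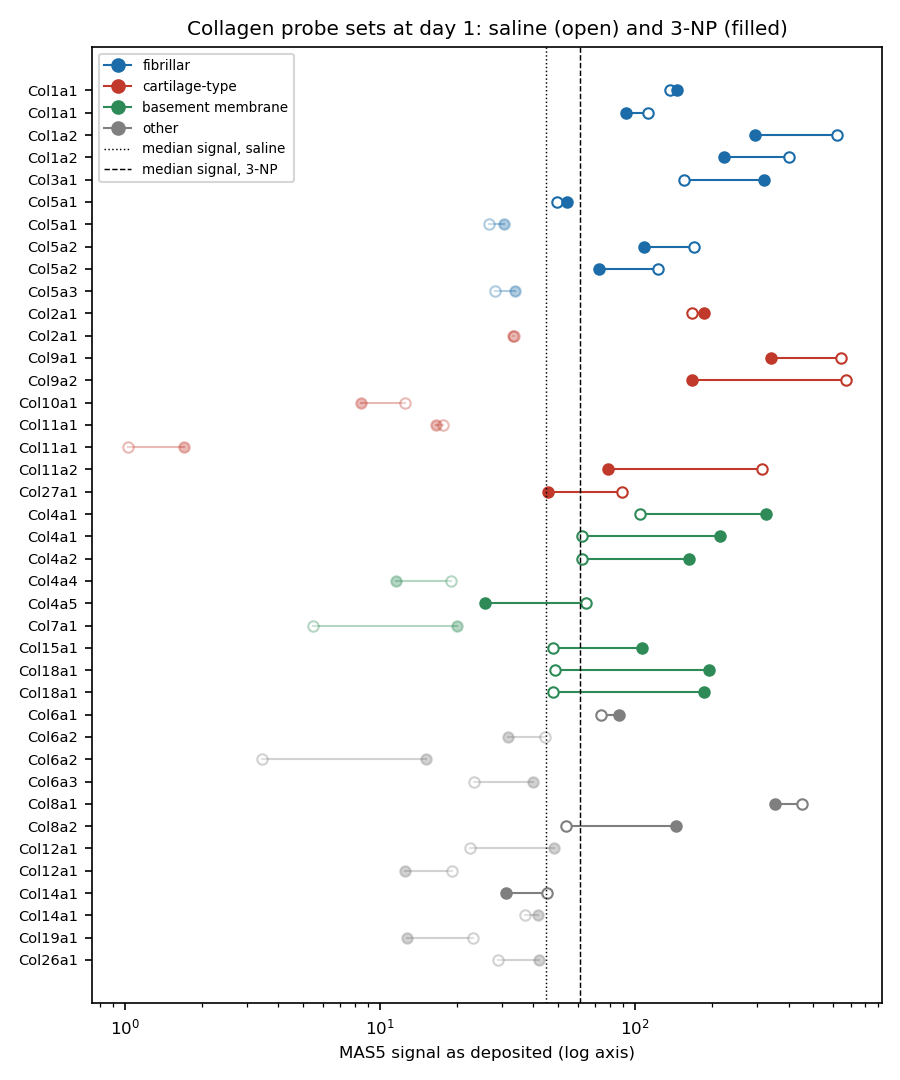
MAS5 signals as deposited (log axis) of the 40 collagen probe sets at day 1, 1 row each, coloured by class, with the saline array as an open point and the 3-NP array as a filled point. Faint points are probe sets below the median signal of both arrays (dotted line 44.9 in saline, dashed line 60.7 in 3-NP). The filled points of Col9a2, Col11a2 and Col1a2 lie to the left of the open ones, those of Col18a1 and Col4a1 to the right.

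Among cartilage-type collagens, 4 of the 5 measured genes were at least 2-fold lower and 0 higher. Of all measured genes at day 1, 6.47% were lower and 7.76% higher, and 2.62% and 17.9% as deposited. The class had a median relative log2 ratio of -1.41 and a range of -2.44 to -0.27. Col9a2, a chain of type IX collagen that coats cartilage fibrils, had 673 after saline and 168 after 3-NP. Its relative log2 ratio was -2.44, and 0.352% of all measured genes lay lower. Col9a1, which encodes a partner chain of the same trimer, had 642 after saline and 340.1 after 3-NP, a relative log2 ratio of -1.36. Both type IX chains were thus lower, Col9a2 by 1.09 log2 units more than Col9a1. Col11a2, a chain of type XI collagen, which sits within cartilage fibrils, had 315 after saline and 78.6 after 3-NP, with a relative log2 ratio of -2.44. Col27a1, a fibril-forming collagen of cartilage, had 89.3 after saline and 45.6 after 3-NP, a relative log2 ratio of -1.41. Its value is also the class median, and its probe set passed the filter through the saline array alone. As deposited, Col9a2 and Col11a2 were still 2-fold lower or more (-2.004 and -2.003), while Col9a1 (-0.92) and Col27a1 (-0.97) came just under that size.

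Col2a1, the main chain of cartilage fibrils, stood apart from these. Its brighter probe set had 167 after saline and 187 after 3-NP, a relative log2 ratio of -0.27 that turned to 0.16 as deposited. A dimmer probe set, below the filter, had 33.7 and 33.3, or -0.45. Col2a1 and Col11a2, whose chains join in the same fibrils, differed by 2.17 log2 units at day 1. Col10a1, a collagen of growth plate cartilage, was at the floor in both arrays, with 12.5 and 8.47. Col11a1 was below the filter at day 1 by both of its probe sets, at 17.7 and 16.7 for the brighter.

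Genes listed as markers of skeletal tissue and of spiral ligament fibrocytes were read in the same arrays. Of all measured genes there, 6.47% were lower by this rule, and 2.62% as deposited. Of 5 chondrocyte markers on the day 1 design, 2 were measured and both were lower, the chondromodulin gene Cnmd at -1.80 and the aggrecan gene Acan at -1.33 (1 as deposited). Comp and Hapln1 were at the floor in both arrays and Cytl1 was below the filter. As deposited, the summed signal of all 5 was 1435 after saline and 593 after 3-NP. Of 7 bone markers 5 were measured and 3 were lower, Bglap (osteocalcin, -1.16), Ibsp (bone sialoprotein, -1.48) and Phex (at least 3.13-fold lower), with Sost at the floor in both arrays (2 lower as deposited). The summed signals of 6382 and 5013 were mostly those of Spp1, the osteopontin gene, which had 6002 after saline and 4672 after 3-NP (-0.80), while Mepe lay on the other side of the median gene at 0.32, and both genes were named after their values were seen. Of 7 genes on the fibrocyte list 5 were lower (3 as deposited), with a median of -1.12 and summed signals of 11511 and 6118. The lowest were the carbonic anhydrase gene Car3 (-2.57), Gjb6 (-2.48), the iodide and bicarbonate exchanger gene Slc26a4 (-1.48) and the transcription factor gene Pou3f4 (-1.12). Whether the genes of this list mark fibrocytes alone was not tested. Acan, Ibsp, Phex and Slc26a4 passed the filter through the saline array alone, so their counts describe a choice that favours a lower signal after 3-NP. The part of any of these cell types in the collagen values was not tested, and in such bulk tissue fewer cells of a type and less RNA per cell cannot be told apart.

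The basement membrane collagens went both ways at day 1, with 2 of 5 measured genes at least 2-fold higher, 1 lower and a median of 0.95. Of all measured genes, 7.76% were higher and 6.47% lower, and 17.9% and 2.62% as deposited. Col18a1, whose protein contains the endostatin fragment, had 48.6 after saline and 195 after 3-NP by its brighter probe set and 47.6 and 187 by the other. The relative log2 ratios were 1.57 and 1.53, and 96.8% of measured genes lay below the first. Col4a1, a chain of the type IV collagen found in nearly all basement membranes, had 105 after saline and 326 after 3-NP by one probe set and 61.7 and 216 by another, or 1.20 and 1.37. Col4a2, its partner chain, had 62.1 and 162, a relative log2 ratio of 0.95, just under the 2-fold size. Col15a1, a close relative of Col18a1, had 47.7 and 107, or 0.73.

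Col4a5 went the other way. Its signal was 64.1 after saline and 25.7 after 3-NP, a relative log2 ratio of -1.75 and -1.32 as deposited, from a probe set that reached the median signal in the saline array alone. Col4a5 encodes a chain of the type IV network found in a few tissues, among them the kidney glomerulus and the cochlea. The gap between Col4a1 and Col4a5 was 2.95 log2 units. Col4a4, another chain of that network, was below the filter at 19.0 after saline and 11.5 after 3-NP. Col7a1, which encodes anchoring fibrils of skin, was at the floor in both arrays, with 5.44 and 20.1.

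Col4a1 and Col4a2 lie head to head in the genome and are read in opposite directions. By the brighter Col4a1 probe set their ratios differed by 0.25 log2 units, less than the probe set SD of 0.35. The dimmer Col4a1 probe set, at 1.37 against 0.95 for Col4a2, differed by more than that SD. Upstream sequences from RefSeq (GRCr8 rat build) were found for 29 of the 37 collagens, taken at the first listed start of each gene. Col1a1, Col2a1, Col3a1 and Col9a3 were among those without one. Shown are 4 sequences: the stretch that the type IV pair shares, and the 250 bases before the start of the basement membrane gene with the highest ratio and of the cartilage-type pair with the lowest ratios. Starts of Col4a1 (plus strand) and Col4a2 (minus strand) are 77 bases apart, against 413 for Col4a3 and Col4a4 and 1415 for Col4a5 and Col4a6. Capitals mark matches to the GC box GGGCGG, searched on both strands, the only one of 4 searched motifs found in these sequences. The first is printed on the Col4a1 strand, the others on the strand of their gene.
Col4a2-Col4a1, chr16:84885521-84885596, plus strand: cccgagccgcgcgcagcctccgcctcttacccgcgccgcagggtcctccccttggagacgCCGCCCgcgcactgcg
Col18a1, chr20:11473395-11473644, plus strand: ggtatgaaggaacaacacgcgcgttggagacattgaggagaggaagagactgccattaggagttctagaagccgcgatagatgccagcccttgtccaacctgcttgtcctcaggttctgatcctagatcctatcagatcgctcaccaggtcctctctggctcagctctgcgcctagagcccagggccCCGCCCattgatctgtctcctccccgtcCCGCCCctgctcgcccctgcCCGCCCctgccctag
Col9a2, chr5:139892548-139892797, plus strand: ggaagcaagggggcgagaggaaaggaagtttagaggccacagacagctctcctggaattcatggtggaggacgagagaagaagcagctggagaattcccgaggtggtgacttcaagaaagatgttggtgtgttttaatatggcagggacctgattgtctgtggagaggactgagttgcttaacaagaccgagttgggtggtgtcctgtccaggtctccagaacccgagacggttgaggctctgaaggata
Col11a2, chr20:4817649-4817898, minus strand: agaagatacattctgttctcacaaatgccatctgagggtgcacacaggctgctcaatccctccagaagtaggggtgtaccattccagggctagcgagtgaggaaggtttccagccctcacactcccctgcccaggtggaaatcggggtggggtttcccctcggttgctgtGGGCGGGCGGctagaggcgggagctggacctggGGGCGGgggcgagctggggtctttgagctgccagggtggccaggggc

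The 76 bases between the type IV starts are 78.9% G or C and hold 1 GC box match. The upstream sequence of Col18a1 held 3 and that of Col11a2 also held 3, while these letters were not in the Col9a2 window. So the motif occurred beside genes of both directions. Over 250 bases, a GC box match was present in 16 of 29 collagens (6 of 8 basement membrane and 3 of 6 cartilage-type genes) and in 32.4% of 27457 rat genes in the table. The windows of Col4a1 and Col4a2 overlap, so the match between their starts counts for both genes. The median share of G or C was 59.6% in the collagen windows and 52% in all, and its part in the motif counts was not tested. The CCAAT box (CCAAT) was found in 7 of 29, against 34.3% of all, the TATA box (TATAAA) in 4 against 13.1%, and the SOX core (AACAAT) in 0 against 10.3%. None of the motifs contains another, a match is a description of the sequence only, and no binding was measured here.

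Vessel and laminin genes were read beside the basement membrane collagens. In these arrays 7.76% of all measured genes were higher and 6.47% lower, and 17.9% and 2.62% as deposited. Of 9 endothelial markers on the day 1 design 6 were measured, and 3 were higher and 0 lower (4 higher as deposited), with a median of 0.81 and summed signals of 757 after saline and 1268 after 3-NP. They were the VEGF receptor gene Kdr (1.61), the junction gene Esam (1.04) and Plvap (at least 2.93-fold), a gene of endothelial diaphragms, while Pecam1, Flt1 and Tie1 were below the filter. The claudin gene Cldn5, with 230 after saline and 182 after 3-NP (-0.77), and Emcn (-0.16) lay below the median gene, and both were named after their values were seen. Of 9 pericyte and smooth muscle markers only Mcam (at least 3.57-fold higher) and Rgs5 (-1.14) were measured. The summed signals of 275 and 348 are as deposited and cover all 9, most of them below the filter. Plvap and Mcam passed the filter through the 3-NP array alone, and Rgs5 through the saline array alone. The part of these cells in the collagen values was not tested. Of 10 measured partner genes of the basement membrane, the laminins, nidogens, perlecan and agrin among them, 0 were 2-fold apart in either direction (2 higher as deposited). Their median was 0.05, and the farthest was the laminin gene Lama2, with 123 after saline and 94.8 after 3-NP, or -0.81.

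**Figure D2:**
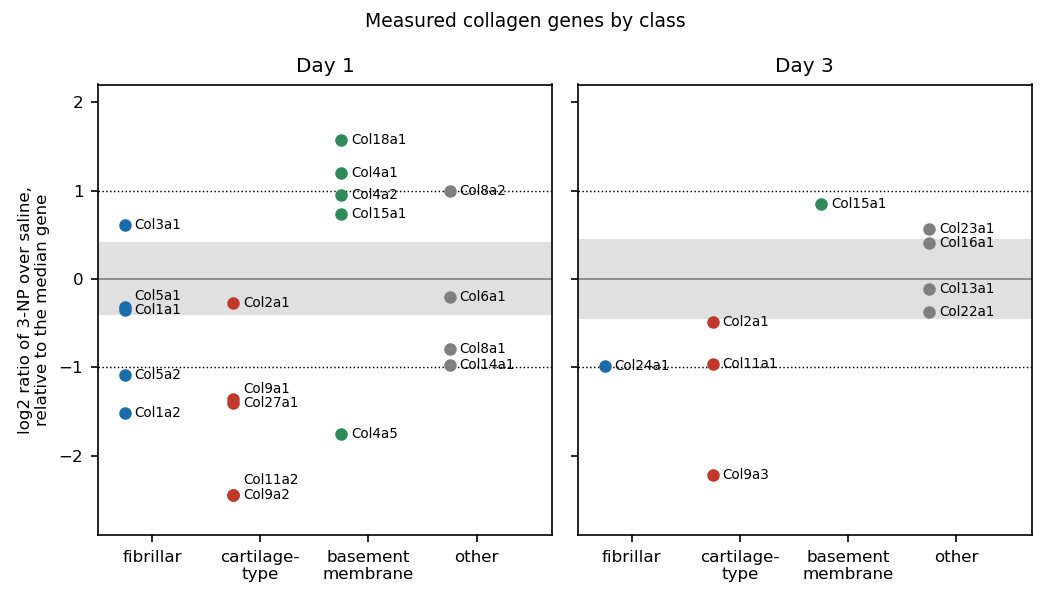
Relative log2 ratio of 3-NP over saline (vertical axis) of each measured collagen gene by class, for the 19 genes of day 1 and the 9 of day 3, 1 array per group. Points are the brightest probe set of a gene, the grey band is the middle 50% of all measured genes and dotted lines mark 2-fold differences; Col9a2 and Col11a2 coincide at -2.44, with Col4a1 and Col18a1 above the upper line.

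Fibrillar collagens had a median of -0.35 at day 1, with 2 of 5 measured genes at least 2-fold lower and 0 higher. Over all measured genes, 6.47% were lower and 7.76% higher, and 2.62% and 17.9% as deposited. Col1a2, a chain of type I collagen, the main collagen of bone and ligament, had 622 after saline and 295 after 3-NP by one probe set and 400.1 and 224 by the other, with relative log2 ratios of -1.51 and -1.28. Col1a1, the other chain of type I, had 137 and 146 by its brighter probe set (-0.35, turning to 0.09 as deposited) and 112 and 92.4 by the other (-0.72). Both Col1a2 probe sets thus lay lower than both Col1a1 probe sets, by 1.16 log2 units between the brighter ones.

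Col5a2, a chain of type V collagen, which starts fibrils of type I, had 170.4 after saline and 109 after 3-NP by one probe set and 123 and 72.3 by another, or -1.09 and -1.21. Its partner Col5a1 had 49.5 and 53.9, a relative log2 ratio of -0.32 that turned to 0.12 as deposited, and a dimmer probe set gave -0.25. Col5a3 was below the filter, with 28.3 and 33.9. Col3a1, the fibrillar collagen of vessel walls and of loose connective tissue, was the only measured fibrillar member above the median gene, with 155 after saline and 321 after 3-NP, or 0.61 (1.05 as deposited).

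The other collagens held 0 of 4 measured genes at least 2-fold apart at day 1, against 7.76% of all measured genes higher and 6.47% lower. Col8a2, a network collagen of corneal and vessel membranes, was at 0.99 with 53.6 after saline and 145 after 3-NP, and Col8a1, which encodes its relative in the same family, was at -0.80 with 451 and 353. That is a gap of 1.79 log2 units. Col6a1, of the beaded filaments around cells, had 73.6 and 86.6, or -0.21 (0.23 as deposited). Col14a1, a fibril-associated collagen, had 45.3 and 31.2 by the probe set that passed, or -0.97, but -0.27 by another below the filter. Below the filter at day 1 were also Col6a2 (44.5 and 31.9), Col6a3 (23.4 and 39.9), Col12a1 (22.6 and 48.4), Col19a1 (23.3 and 12.8) and Col26a1 (29.0 and 41.9), for saline and 3-NP in each case.

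Beyond the collagens, genes of chain synthesis and modification showed 0 of 21 measured genes higher and 2 lower at day 1, with a median of -0.06 (3 and 1 as deposited). Over all measured genes 7.76% were higher and 6.47% lower, and 17.9% and 2.62% as deposited. The lower ones do not build chains: Prodh, a mitochondrial enzyme that breaks down proline, had 166 after saline and 56.5 after 3-NP (-1.995), and Creb3l1, a transcription factor of the secretory pathway that acts on type I collagen genes in bone, was at -1.26, and both passed the filter through the saline array alone. Of 5 genes of processing and crosslinking, 2 were higher and 0 lower. Lox, the lysyl oxidase that crosslinks collagen and elastin, had 96.6 and 439 (1.74), and the transglutaminase gene Tgm2 had 83.0 and 306 (1.44). Of 4 collagen receptors 1 was higher, the receptor tyrosine kinase gene Ddr1 at 1.02 (2 as deposited).

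Of 9 measured genes of collagen breakdown and its inhibitors, 3 were higher and 0 lower, namely the metalloproteinase inhibitor gene Timp1 (4.29), the stromelysin gene Mmp3 (at least 6.33-fold) and the cathepsin gene Ctsl (1.01). Regulators of collagen transcription had 4 of 11 higher and 0 lower: the transcription factor gene Cebpb (at least 9.96-fold), Smad3 (1.58), which carries TGF-beta signals to the nucleus, and the TGF-beta genes Tgfb1 (at least 2.86-fold) and Tgfb3 (1.04). Of these, Cebpb, Smad3 and Tgfb1 passed the filter through the 3-NP array alone, as Mmp3 did, so the counts of 4 and 3 describe the genes kept and support no direction. Of all measured genes, 7.76% were higher and 6.47% lower by this rule (2.62% lower as deposited). Fibril-associated proteoglycans, which bind collagen fibrils, had 3 of 8 lower and 0 higher (2 as deposited), with a median of -0.79, led by Omd at -2.45 and Ogn at -2.13, with Chad at -1.13, and Omd and Chad passed through the saline array alone. Cartilage matrix genes had 2 of 3 lower (1 as deposited), again Cnmd and Acan, which are in the chondrocyte list too, and Matn2 was at 0.14.

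**Figure D3:**
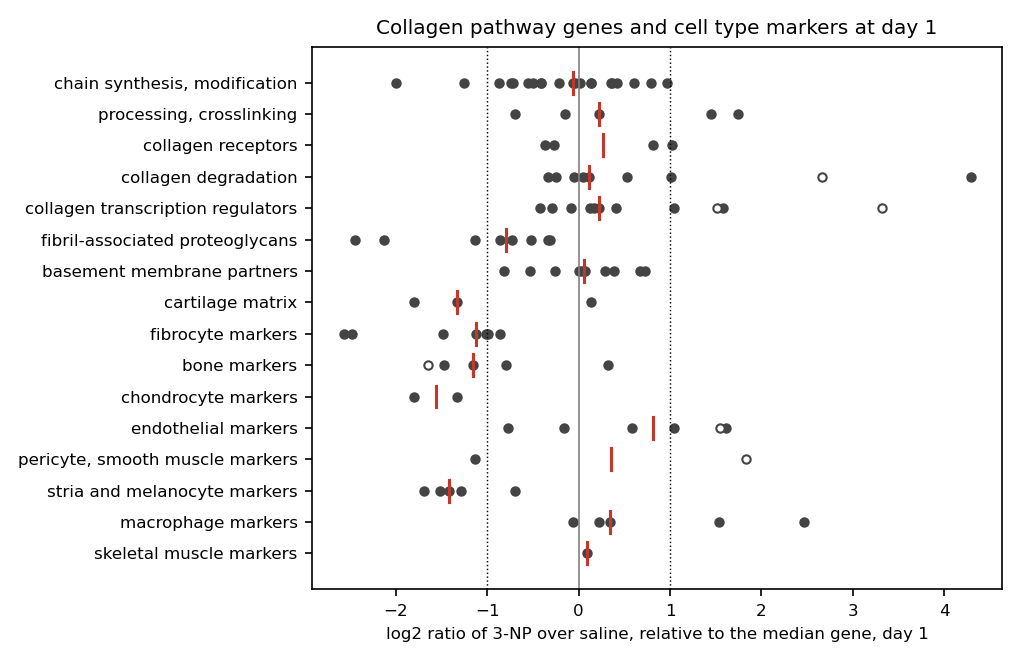
Relative log2 ratio of 3-NP over saline at day 1 (horizontal axis) of each measured gene in 8 collagen pathway lists and 8 cell type marker lists (rows), 1 array per group. Filled points are genes above the floor in both arrays, open points are bounds, red bars are list medians and dotted lines mark 2-fold differences. The fibrocyte, bone, chondrocyte, cartilage matrix, and stria and melanocyte medians lie left of the lower line. The endothelial median is at 0.81.

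Markers of other cells at day 1 were as follows. Of all measured genes, 7.76% were higher and 6.47% lower, and 17.9% and 2.62% as deposited. Stria and melanocyte markers had 4 of 5 measured genes lower (2 as deposited), with a median of -1.42 and summed signals of 2325 after saline and 1161 after 3-NP. They were the endocytic receptor gene Lrp2 (-1.69), the potassium channel genes Kcne1 (-1.52) and Kcnq1 (-1.42) and the pigment cell gene Mlana (-1.29), although a label field describes tissue taken without the stria. Of 8 macrophage markers on the design 5 were measured and 2 were higher. They were the galectin gene Lgals3 (2.47) and the endotoxin co-receptor gene Cd14 (1.54), which passed the filter through the 3-NP array alone. Cd68 (0.34), Lyz2 (0.23) and Csf1r (-0.06) were less than 2-fold apart, and these genes were named after their values were seen. Aif1, Itgam and Ptprc were at the floor in both arrays. Summed signals of the list were 1458 and 2982. Of skeletal muscle markers only Myh1 was measured, at 0.09.

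At day 3 the other design carried 13 collagens, and Col9a3 stood lowest. It encodes the remaining chain of type IX collagen and had 1166 after saline and 269 after 3-NP, a relative log2 ratio of -2.22, with 0.453% of measured genes lower. Of 9 measured collagens, 1 was at least 2-fold lower, against 8.18% of all 3972 measured genes, and 0 were higher, against 9.21%. As deposited the counts were also 1 and 0, against 6.42% and 10.9% of all genes. The share of lower collagens was 11.1%, near that of all genes.

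All 3 measured cartilage-type collagens lay below the median gene at day 3. Col11a1 had 358 after saline and 197 after 3-NP, or -0.97, and Col2a1 had 57.5 and 43.8, or -0.49. Col24a1, a fibrillar collagen known from bone, had 47.6 and 25.8, a relative log2 ratio of -0.99, just under the 2-fold size. Col15a1 had 26.4 and 50.9, or 0.85. Among the rest, Col23a1, a membrane-spanning collagen, had 25.6 and 40.5 (0.56), Col16a1 71.5 and 101.5 (0.41), the membrane-spanning Col13a1 27.1 and 26.9 (-0.11) and Col22a1, of tissue junctions, 28.3 and 23.4 (-0.37). Col4a6, Col12a1 and Col17a1 were at the floor in both arrays, with signals of at most 6.15, and Col6a3 was below the filter with 6.00 and 15.5.

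**Figure D4:**
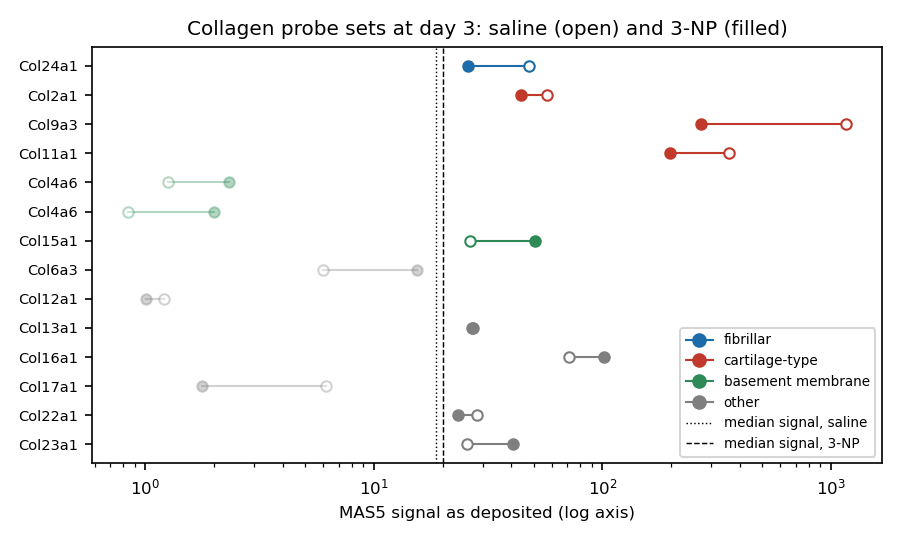
MAS5 signals as deposited (log axis) of the 14 collagen probe sets at day 3, 1 row each, coloured by class, with saline open and 3-NP filled and with faint points for probe sets below the median signal of both arrays (dotted line 18.7 in saline, dashed line 19.97 in 3-NP). Col9a3 shows the widest gap among the probe sets above those lines, from 1166 to 269.

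Only Col2a1 and Col15a1 were measured on both days, each by different probe sets and in different arrays. Col2a1 had a relative log2 ratio of -0.27 at day 1 and -0.49 at day 3. Col15a1 was at 0.73 and 0.85. Each gene kept its side of the median gene across days, and its values differed by less than the probe set SD of either day. The 3 type IX genes were split over the designs, Col9a1 and Col9a2 at day 1 and Col9a3 at day 3. Relative to the median gene, each was at least 2-fold lower in its own pair. Of all measured genes, 6.47% were so at day 1 and 8.18% at day 3. As deposited, Col9a1 was just under that size (-0.92).

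The pathway lists were thin at day 3, when 9.21% of all measured genes were higher and 8.18% lower. Of 5 genes of chain synthesis 0 were 2-fold apart. The farthest was the prolyl hydroxylase gene P4ha3, with 26.1 after saline and 14.0 after 3-NP, 1.99-fold lower relative to the median gene. P4ha3 passed the filter through the saline array alone. Tmem38b, named after its value was seen, lay on the other side at 0.93 (1.03 as deposited). The lysyl oxidase relative Loxl3 was at -1.15, the laminin gene Lamb3 at -1.28 with 994 and 438, and the metalloproteinase gene Mmp14 at 0.86. The collagen receptor gene Ddr2 was at -0.65, Tgfb2 at -0.55, and the proteoglycan gene Podn at -0.09. Of 3 measured genes on the cartilage matrix list 1 was lower, Vit (-2.45), which encodes vitrin. The others, Snorc (0.62) and Ucma (-0.02), were less than 2-fold apart. Chondrocyte markers had 0 of 2 measured genes apart, with Snorc at 0.62, summed signals of 68.3 and 78.1, and Matn1, Matn3 and Hapln1 at the floor in both arrays.

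Other markers at day 3 were few. Of all measured genes, 9.21% were higher and 8.18% lower (6.42% lower as deposited). The bone marker Dmp1 was at -0.77, the endothelial Tek at -0.66 and the pericyte receptor gene Pdgfrb at 0.72. Of 3 measured fibrocyte markers 2 were lower, Meis1 (-1.34) and Tbx18 (-1.19). The summed signals of 7110.4 and 5936 were mostly those of Coch, which had 6548 after saline and 5677 after 3-NP (-0.31). Stria and melanocyte markers had 3 of 5 lower, Bsnd (-1.93), Tyr (-1.85) and Atp1b2 (-1.19), and 1 higher, Tyrp1 (at least 7.02-fold), with summed signals of 3943 and 2302. Macrophage markers had 2 of 2 lower, Mrc1 at -1.08 and Cd163 at -1.07, but 0 as deposited. Bsnd and Cd163 passed the filter through the saline array alone and Tyrp1 through the 3-NP array alone. The part of these cells in the day 3 collagen values was not tested.

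**Figure D5:**
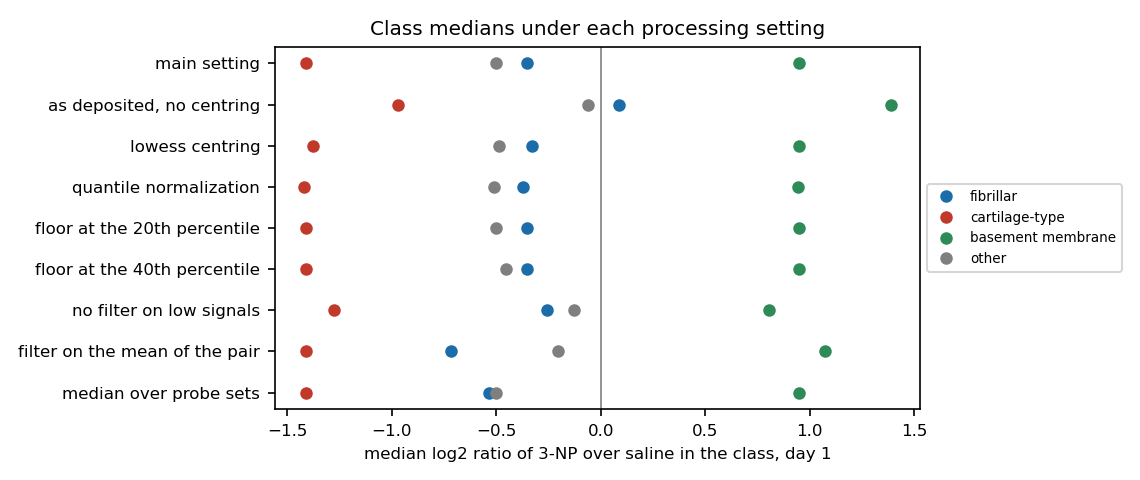
Median log2 ratio of 3-NP over saline at day 1 (horizontal axis) of the measured genes of each collagen class under the main setting and 8 other processing settings (rows). The cartilage-type median lies between -1.42 and -0.97 and the basement membrane median between 0.81 and 1.39, while the fibrillar median is -0.35 in the main setting and 0.09 as deposited.

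The cartilage-type and basement membrane medians kept their side of 0 under every setting shown in the plot of class medians by setting. The fibrillar median did not, since it crossed 0 as deposited.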

How the data were processed

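Per the labels' protocols, biotin-labelled cRNA from 6 µg of total RNA was hybridised to Affymetrix arrays. The authors deposited signal intensity values per probe set on a linear scale, made with MAS5 per the submitters' processing notes; its scaling target and detection calls were not used here. The number of arrays, 1 per group, limits the precision.

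The platform annotation named the probe sets, and its gene identifiers led to current RefSeq symbols (GRCr8). Python 3.11.15 with pandas 2.3.3, numpy 2.4.6 and statsmodels 0.14.6 was used. Control probe sets were left out. A floor was set at the 30th percentile of each array (17.1 for saline and 22.0 for 3-NP on day 1, 9.22 and 9.85 on day 3), and log2 ratios were taken. A fold with 1 signal at this floor is a bound. Probe sets at or above the 50th percentile in at least 1 array of the pair were kept, each gene took its brightest, and ratios were centred on the median over kept genes. Below the filter, ratios use the same floor and centring. As deposited means without centring. Summed signals are as deposited, over the brightest probe set of every list gene on the array, measured or not. The calculation was tested on simulated data.

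Collagen classes were: fibrillar (Col1a1, Col1a2, Col3a1, Col5a1, Col5a2, Col5a3, Col24a1), cartilage-type (Col2a1, Col9a1, Col9a2, Col9a3, Col10a1, Col11a1, Col11a2, Col27a1), basement membrane (Col4a1 to Col4a6, Col7a1, Col15a1, Col18a1) and other. Every collagen was named, and from each list and day up to 4 genes at least 2-fold apart, or else the farthest from 0. Members and lists were chosen with earlier results of these data known. The 8 alternatives changed centring, floor, filter and probe set choice.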

Additional observations from a re-analysis of the deposited data

How the results depend on the processing

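At day 1, ratios as deposited gave 6 collagens at least 2-fold higher and 4 lower, against 2 and 7 relative to the median gene. Added to the higher genes were Col15a1, Col3a1, Col4a2 and Col8a2, and Col27a1, Col5a2 and Col9a1 left the lower ones. The median of all measured collagens moved from -0.35 to 0.087, that of fibrillar genes from -0.35 to 0.087, of cartilage-type genes from -1.41 to -0.97, of basement membrane genes from 0.95 to 1.39 and of other collagens from -0.50 to -0.061, as the shift of 0.44 sets. Without the filter on dim signals, 4 genes were higher (Col4a2 and Col8a2 joined) and the median of other collagens was -0.13. With a filter on the mean of the pair the fibrillar median was -0.72, and Col4a5 was no longer among the measured genes, which left 6 lower ones. These filters change which genes enter. No other collagen count or collagen class median of either day moved beyond 1.5 times or the probe set SD, and no collagen at least 2-fold apart changed sign under any of the 8 alternatives. The pathway and marker lists were recomputed as deposited only. As deposited, 17.9% of all measured genes were higher and 2.62% lower at day 1, and 10.9% and 6.42% at day 3. At day 1 the lower genes went from 5 to 3 for fibrocytes, 4 to 2 for stria, 3 to 2 for bone and for proteoglycans, 2 to 1 for chondrocytes, cartilage matrix and chain synthesis, and 1 to 0 for pericytes. The higher ones went from 3 to 4 for endothelium, 1 to 2 for receptors, 0 to 2 for basement membrane partners and 0 to 3 for chain synthesis. At day 3 the lower macrophage genes went from 2 to 0, and the higher genes of chain synthesis from 0 to 1. Leaving out a replicate was not possible with 1 array per group. No paired analysis was possible because each group has 1 array. Dim members below the median signal are limited by signal over background.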

Other observations

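At day 1, 5 collagens had 2 probe sets above the filter, and in 5 of 5 the pair fell on 1 side of the median gene. The gap between them ran from 0.04 log2 units for Col18a1 to 0.37 for Col1a1. Other collagens had a probe set below the filter. Col5a1 gave -0.32 by the probe set above it and -0.25 by the one below. Col2a1 gave -0.27 and -0.45 in that order, and Col14a1 gave -0.97 and -0.27. Col12a1 gave 0.66 by a probe set with 22.6 in saline and 48.4 in 3-NP, and a bound of -0.23 by another with 19.1 and 12.5. Col6a2 gave -0.92 by a probe set with 44.5 and 31.9, while its other probe set, with 3.45 and 15.2, stayed at the floor in each array.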
